A study of Mus musculus with 4 samples.

Results

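The Sonic hedgehog pathway was followed through single-cell RNA sequencing of the MGE (medial ganglionic eminence), which supplies inhibitory and cholinergic neurons from the floor of the embryonic forebrain. The 8 genes described were matched by symbol among the 32285 genes of the count tables: the ligand Shh, the receptor Ptch1, the signal transducer Smo, the negative regulator Sufu, the transcription factors Gli1, Gli2 and Gli3, and the ligand-binding inhibitor Hhip. Pools of MGE dissected from e14.5 mouse embryos, which had heterozygous St18 (-/+) parents of the strain C57/BL6 ICR mix, gave 4 droplet libraries of 10x Genomics chemistry. Of these, 2 libraries were labelled whole-animal St18 (-/-), called null here, and 2 were labelled WT (+/+). St18 is a transcription factor of the zinc finger kind, and its null allele lacks floxed exons recombined by a germline Cre. No source gives the number or sex of the embryos in a pool, so a p-value here takes libraries as its units. The spread between libraries was estimated with values shared over genes. Where cells were split by a transcript, it rested almost wholly on those, and a gene's own disagreement between libraries counted little. Where 4 values follow each other below, they are for null replicates 1 and 2 and then WT replicates 1 and 2.

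In vertebrates, secreted Shh binds Ptch1 and relieves its block on Smo at the primary cilium. Active Smo then frees Gli2 and Gli3 from Sufu and from processing into repressors, and Gli1, Ptch1 and Hhip are transcribed as targets of the pathway, the latter pair feeding back to limit the ligand. In the ventral forebrain the pathway patterns the ganglionic eminences and maintains Nkx2-1, the transcription factor that defines the MGE. The question was where the transcripts of the source and of the response lay, in postmitotic neurons or in dividing progenitors, and whether the null and WT libraries differed in them.

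The libraries held 70991150 to 92984713 unique molecular identifiers (UMIs, each standing for 1 captured transcript), of which 40.2% to 59.7% were in the 18267 cells kept. Clusters built without the hedgehog genes were classed by markers into 10185 neurons and 7795 progenitors, and 287 blood, immune and glial cells were set aside. The 9 neuron and 11 progenitor markers that set the classes were each higher in their own class in 4 of 4 libraries, which follows from how the classes were made. The MGE genes Nkx2-1, Lhx6 and Lhx8 were present in both classes, with Nkx2-1 at 287 CPM (UMI counts per 1000000 UMIs of the summed cells) in neurons and 435 in progenitors. In null replicate 2, progenitor cluster 1 held 24 cells against 226 to 291 in the other libraries, so that library stood apart in its cell composition. St18 itself was at 25.1, 79.1, 43.9 and 58.9 CPM in neurons, so null replicate 2 went against its label, although the recombined allele still gives a transcript, so that this level does not settle the genotype. Other values set both null libraries apart from both WT libraries, such as neuron cluster 4, led by Npy and Rnd2, with 2.85% and 1.99% of the neurons labelled null and 14.0% and 12.4% of those labelled WT. Groups are named by their label throughout. Xist, which is transcribed in female cells, was at 596 and 1476 CPM in the neurons labelled null and had 3 and 1 UMIs in those labelled WT, so sex and genotype cannot be told apart at the level of libraries.

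All 8 members are protein-coding genes. In the GRCm38 build with GENCODE M21 annotation, Shh (ENSMUSG00000002633) lies at chr5:28456815-28467256 on the minus strand, Ptch1 (ENSMUSG00000021466) at chr13:63508328-63573598 on the minus strand and Smo (ENSMUSG00000001761) at chr6:29735503-29761365 on the plus strand. Sufu (ENSMUSG00000025231) lies at chr19:46396896-46488804 on the plus strand and Hhip (ENSMUSG00000064325) at chr8:79965851-80058006 on the minus strand. Of the Gli genes, Gli1 (ENSMUSG00000025407) lies at chr10:127329882-127341974 on the minus strand, Gli2 (ENSMUSG00000048402) at chr1:118834132-119053619 on the minus strand and Gli3 (ENSMUSG00000021318) at chr13:15463235-15730026 on the plus strand.

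Ptch1 and Hhip, the targets whose transcripts were found together below, are shown by the 250 bases before their RefSeq start in GRCm38.p6, read along the gene's strand. The window of Ptch1 lies inside the gene span given above, before an internal start, and the upstream starts of that gene were not searched. Capitals mark the core of the Gli binding site, CCACCC or GGGTGG on the other strand.
Ptch1, chr13:63565736-63565985, minus strand: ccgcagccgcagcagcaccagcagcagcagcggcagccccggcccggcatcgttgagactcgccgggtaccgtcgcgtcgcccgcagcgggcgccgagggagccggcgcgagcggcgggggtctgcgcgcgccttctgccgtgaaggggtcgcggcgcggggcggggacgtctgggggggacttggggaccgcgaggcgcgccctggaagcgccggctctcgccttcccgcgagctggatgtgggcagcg
Hhip, chr8:80058009-80058258, minus strand: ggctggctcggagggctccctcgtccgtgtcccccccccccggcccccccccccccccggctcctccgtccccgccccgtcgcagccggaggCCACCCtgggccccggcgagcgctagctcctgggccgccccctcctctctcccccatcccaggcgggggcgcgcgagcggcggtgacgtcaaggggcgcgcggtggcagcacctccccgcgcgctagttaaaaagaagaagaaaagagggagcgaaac
The Hhip window held 1 core, its first base 158 bases before the start, and the Ptch1 window held none. G and C made up 78.4% of the Ptch1 window and 76.0% of the Hhip window. The core was in 28.1% of 32851 RefSeq windows of this length and in 4 of the 6 members with a window (Gli2, Gli3, Hhip and Smo). The full site GACCACCCA, which contains the core, was in 0.225% of the windows on either strand (TGGGTGGTC on the other) and in 0 of the 6. These letters describe the windows and say nothing of whether a Gli protein binds there or elsewhere.

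Shh and most of the other members differed between the classes in opposite directions. Shh was 5.46-fold lower in progenitors than in neurons, while Gli1, Gli2, Gli3, Hhip, Ptch1 and Smo were higher in progenitors and Sufu did not pass the test. Thus 6 of 8 members were called higher, where 39.7% of the 13759 genes tested were, and 1 of 8 was called lower, where 40.7% of all genes were. The test was edgeR's quasi-likelihood test on counts summed per library and class, with the library as a block and Benjamini-Hochberg adjustment over all genes tested, two-sided, at an adjusted p of 0.05. Since most genes were called in one direction or the other, a call by itself does not set a member apart, and the sizes are given below. The share of all genes without overlap between the classes was not counted, so a lack of overlap does not set a member apart either.

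Shh, the secreted ligand, was at 20.3, 23.3, 26.0 and 25.6 CPM in neurons, a mean of 23.8 ± 2.62 (SD, n = 4 libraries). In progenitors it was at 2.55, 4.91, 3.78 and 6.22 CPM, with a mean of 4.37 ± 1.57. The highest progenitor value was below the lowest neuron value, and the log2 difference was -2.45 (SE 0.117, adjusted p = 2.93e-11). Empty droplets, which hold free RNA, had 6.56 to 8.36 CPM of Shh, above the progenitor level in each library, and the UMIs expected from them came to 4.38% to 10.9% of the Shh UMIs of progenitors. In cells thinned to 3000 UMIs, Shh was seen in 4.43% to 5.42% of neurons per library and 0.665% to 1.52% of progenitors. It was seen in 0 of 153 erythroid cells, which should lack it, and that allows a share of up to 1.96% by counting error alone. Median depths were 6007 UMIs in neurons, 9011 in progenitors and 11387 in erythroid cells.

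Ptch1 and Smo had UMIs in both classes and were higher in progenitors. Ptch1, the Shh receptor and a target of its own pathway, was at 40.1, 45.3, 34.8 and 34.3 CPM in neurons and at 70.4, 86.3, 50.9 and 52.9 CPM in progenitors. It was higher in progenitors in 4 of 4 libraries, by 0.80 on the log2 scale (SE 0.0497, adjusted p = 7e-10). Smo, the transducer that Ptch1 holds inactive, was at 45.7, 50.2, 40.3 and 33.3 CPM in neurons and 85.1, 87.0, 64.3 and 67.2 CPM in progenitors, a log2 difference of 0.90 (SE 0.0525, adjusted p = 3.51e-10). Neither gene's ranges overlapped between the classes, which was not counted over all genes. Empty droplets had Ptch1 at 45.1, 39.3, 36.8 and 38.8 CPM, above the neurons in 3 of 4 libraries, and Smo at 31.3, 28.3, 21.1 and 22.0 CPM, below the neurons in 4 of 4. The UMIs expected per cell from those droplets came to 4.28% to 8.04% of the Ptch1 UMIs of neurons. After thinning, Ptch1 was seen in 10.3% of all neurons and Smo in 11.9%, beside 9.9% of 101 microglia for each and 0 of 153 erythroid cells, so these neuron shares were close to those of a cell type outside the neural lineage.

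Among the intracellular members, the Gli genes passed the test and Sufu did not. Sufu, which holds Gli proteins in the cytoplasm, was at 15.9, 21.5, 15.0 and 13.1 CPM in neurons and 18.5, 22.3, 14.6 and 13.4 CPM in progenitors. Its difference was 0.13 on the log2 scale, with a 95% interval from -0.0076 to 0.267 (adjusted p = 0.0757), so a change of over 0.267 in either direction lies outside that interval. Gli3, which serves mainly as a repressor without ligand, was at 4.35, 5.79, 5.15 and 4.60 CPM in neurons and at 41.6, 54.7, 37.1 and 31.0 CPM in progenitors. Its difference of 3.12 (SE 0.0770, adjusted p = 1.29e-14) was the largest of the 8 members. Gli2, the main activator, was sparse, at 0.623 to 1.30 CPM in neurons and 0.975 to 5.16 CPM in progenitors, with ranges that overlapped and a difference of 1.34 (SE 0.219, adjusted p = 4.37e-05).

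Gli1 and Hhip, the targets read most directly as pathway output, were both rare. Gli1 had 9, 4, 8 and 3 UMIs in the neurons of the 4 libraries and 66, 49, 33 and 16 in progenitors, or 2.37, 2.41, 2.01 and 1.20 CPM in progenitors, and differed by 2.58 (SE 0.274, adjusted p = 4.32e-07). Hhip, a membrane protein that binds and sequesters Shh, was at 1.94, 1.25, 1.13 and 0.935 CPM in neurons and 9.32, 12.9, 5.97 and 4.72 CPM in progenitors, a difference of 2.68 (SE 0.163, adjusted p = 5.56e-10). Both were higher in progenitors in 4 of 4 libraries without overlap. Empty droplets had 1.54 to 2.03 CPM of Gli1, within the progenitor range, and 3.48 to 6.43 CPM of Hhip, below the progenitors of the same library in 4 of 4. The UMIs expected from empty droplets came to 18.7% to 46.9% of neuron Gli1, 20.4% to 28.9% of neuron Gli3 and 16.1% to 26.5% of neuron Hhip. With those UMIs taken off, the differences were 2.996 for Gli1, 3.50 for Gli3, 2.96 for Hhip and -2.54 for Shh.

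**Figure D1:**
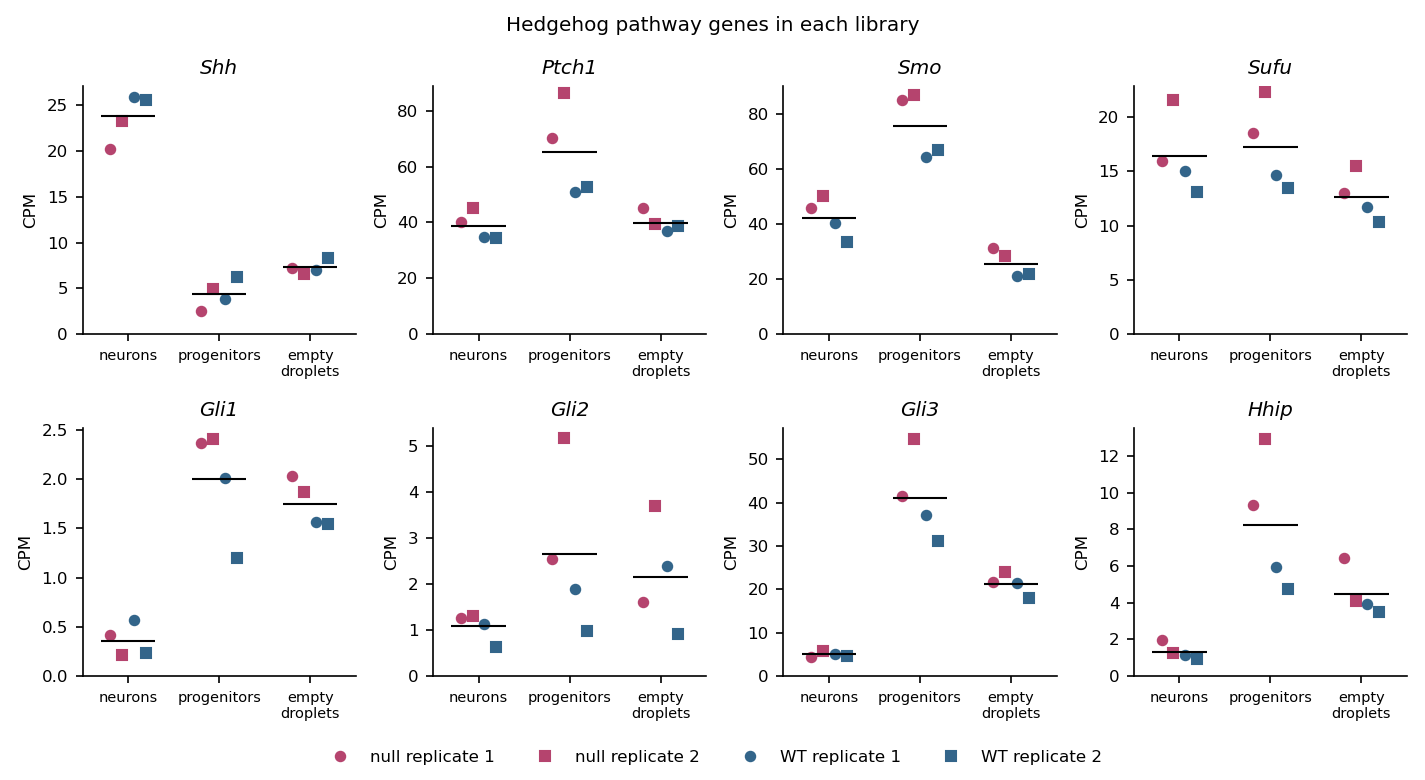
CPM of each of the 8 members in the neurons, the progenitors and the empty droplets of each library, with 1 point per library, a bar at the mean of 4 and 1 panel per gene on its own vertical axis. Shh sits highest in neurons (20.3 to 26.0 CPM), while progenitor Gli3 (31.0 to 54.7 CPM) lies above both neurons and empty droplets.

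A wider list of 51 pathway genes, 46 of which could be tested, gave these counts in the same comparison: 19 were higher in progenitors, 21 were lower and 6 did not pass, shares near the 39.7% and 40.7% of all genes, so the list as a whole was not set apart. Its target genes were higher in 8 of 9 tested, with a median log2 difference of 3.11 beside -0.02 over all genes. They included Cdk6 (from 12.4 to 145 CPM, log2 3.59), a cell cycle kinase, Foxm1 (4.95 to 54.3 CPM, 3.48), a factor of the G2 and M phases, and Olig2 (9.77 to 102 CPM, 3.43), a ventral progenitor factor. These are also known as cell cycle or progenitor genes, and the part of the class in their count was not tested.

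Of the genes for ligands and their release, 0 of 4 tested were higher and 3 were lower, with Scube1, which helps release lipid-bound Shh from cells, falling from 10.2 CPM in neurons to 1.67 in progenitors (log2 -2.61). Receptors and co-receptors were mixed, with 4 higher and 2 lower of 8, such as the glypicans Gpc4 at 7.59 and 23.3 CPM (1.66) and Gpc6 at 50.4 and 36.6 CPM (-0.40) in neurons and progenitors. Genes for Gli processing were lower in 11 of 13, beside 40.7% of all genes, with a median of -0.73. The largest changes were in the ubiquitin ligase parts Btrc (-0.89), Fbxl17 (-0.86) and Mgrn1 (-0.84), while the ligase adaptor Spop went the other way (0.73, from 83.1 to 132 CPM) and the ligase scaffold Cul3 was at -0.08. Cilium and Smo trafficking genes had 6 higher and 5 lower of 13, close to the shares of all genes, with the anterograde motor Kif3a at 179 CPM in neurons and 80.9 in progenitors (-1.08), the BBSome part Bbs4 at -0.90 and the negative regulator Rab23 at 0.64.

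Within the neurons, Shh was concentrated in 1 cluster. Neuron cluster 3, 764 cells whose leading genes included Shh, Lhx8, Zic1 and Kitl and which was left unnamed, had Shh at 141, 216, 148 and 132 CPM (mean 159 ± 38.2). It held 43.7% of the Shh UMIs of neurons in 7.50% of the neurons, and 27.4% of its cells had a Shh UMI after thinning. The next clusters were 12, led by Peg10 and Calb1, at 63.4 ± 7.76 CPM and 13, an Lhx8-and-Zic-like cluster, at 47.7 ± 16.6 CPM. Each library's value in cluster 3 was above every value in clusters 12 and 13, which overlapped each other. Cluster 3 also held the cholinergic factor Lhx8 at 838 CPM beside 182 in other neurons, Zic1 at 383 beside 89.6, and Nkx2-1 at 510 beside 272. Ptch1 in it was 30.8, 39.3, 32.1 and 24.6 CPM, below the level of all neurons in 4 of 4 libraries, and Gli1 had 1 UMI in the whole cluster. These cluster levels are descriptions without a test, since the clusters were drawn from the same cells.

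**Figure D2:**
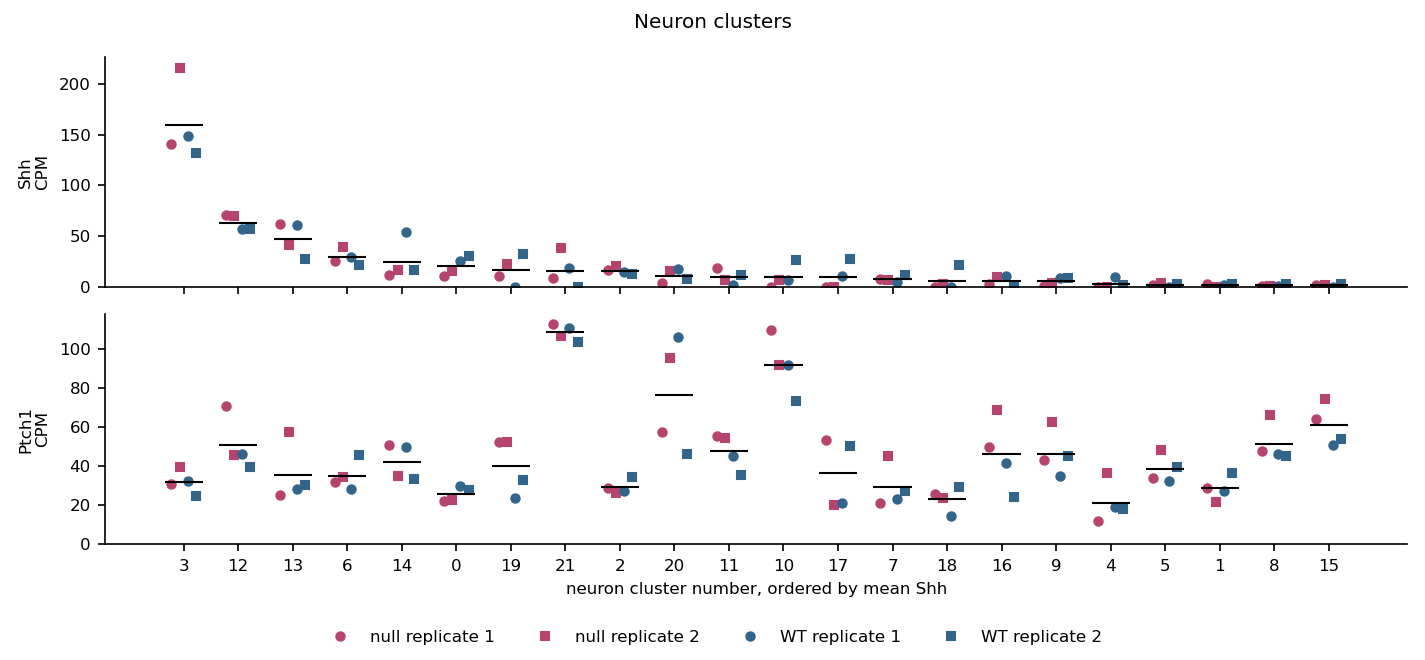
CPM of Shh and Ptch1 in the 22 neuron clusters, ordered by mean Shh, with 1 point per library and a bar at the mean of 4. Cluster 3 stands at 132 to 216 CPM of Shh, and Ptch1 shows no matching peak there.

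The other members were low or followed different clusters among neurons. Ptch1 was highest in cluster 21 (108 ± 4.22 CPM), which carried the division genes Mki67 and Top2a among its leading genes, and in cluster 10 (91.6 ± 14.7 CPM), a cluster like neurons of the lateral ganglionic eminence (LGE), led by Slc18a2 and Zfp503. Cluster 21, with 85 cells, and cluster 0, with 1167, had progenitor markers and 0 neuron markers among their 10 leading genes, so their leading genes went against the neuron class. Cluster 10 also held 48.7% of the Gli2 UMIs of neurons, at 12.4 ± 1.54 CPM. Its 10 leading genes held markers of neither class. Scaled over the 22 clusters, its mean progenitor marker level was above its mean neuron marker level, so it leaned toward progenitors. Its Ptch1 and Gli2 levels therefore need not be those of postmitotic neurons. The genes most like Shh over the 22 clusters, by Pearson's r of log2(CPM + 1) among 10717 genes, were Ermn (0.82), Ptgr2 (0.76), Lhx8 (0.76), AI606473 (0.75) and Mest (0.75). The clusters share libraries and depth, so these r values only rank the genes.

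Neurons with a Shh UMI were then compared with neurons without, each cell thinned to 3000 UMIs. The split gave 158, 96, 133 and 115 cells with Shh. By edgeR's quasi-likelihood test, with libraries as blocks, 173 genes (1.6% of 10791 tested) were higher with Shh and 224 (2.08%) were lower. Higher were Lhx8, at 643 ± 55.7 CPM with Shh and 207 ± 44.0 without (log2 1.64), the patterning factor Zic1 at 290 and 98.9 CPM (1.57), and the semaphorin receptor Nrp1 at 141 and 46.8 CPM (1.59). Ermn (2.32), Rftn1 (2.05), Enkd1 (1.91), AI606473 (1.89), Parm1 (1.81) and Lrguk (1.63) were also higher, from lower levels.

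The genes that were lower with Shh were led by Ebf1, a striatal differentiation factor, at 14.4 CPM with Shh and 282 without (log2 -4.14). Epha5, a guidance receptor, was at 183 and 789 CPM (-2.14). Car2, Itm2a, Efcab6, Wls and Id3 fell by 2.96, 2.96, 2.95, 2.95 and 2.92 on the log2 scale, and Lypd1, Zfp503 and Mpped1 by 2.30, 2.17 and 2.16. With Shh, Car2 was at 4.22, 0, 0 and 0 CPM, and Itm2a, Efcab6, Wls and Id3 were also at 0 in null replicate 2. The folds of these genes rest on few UMIs. Without cluster 3, the number of genes called was 174 in place of 397, and with the library block left out it was 92. Ebf1 is an LGE marker, and without the clusters of pallial, LGE and caudal eminence (CGE) neurons 392 genes were called.

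None of the members that could be tested passed beside Shh. Ptch1 differed by 0.08 (adjusted p = 0.940), Smo by 0.44 (SE 0.171, adjusted p = 0.184), and Sufu and Gli3 by 0.26 and 0.60, while Gli1, Gli2 and Hhip were too sparse to test. At an unadjusted p under 0.05, 1 of these 4 passed, as did 1330 of the 10791 genes tested. Of the 36 wider pathway genes tested here, 0 were called. In single cells, Ptch1 was detected in 11.4%, 10.4%, 14.3% and 7.83% of neurons with Shh and 10.3%, 12.6%, 8.91% and 9.43% of those without, with no common direction. Gli1 was seen in 0 of 502 neurons with Shh, which allows a share of up to 0.598% by counting error, and in 8 of 9683 neurons without, so a difference was not detectable at this depth.

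Among progenitors, the response genes Ptch1, Gli1 and Hhip came together in cluster 14. Its 181 cells (81, 55, 33 and 12 per library) were left unnamed: all 9 radial glia markers were higher than in other progenitors, but the leading genes (Dio3, Ptx3, Hhip and Nkx6-2 among them) held none of those and did hold Nr2f1 and Nr2f2 of the CGE list. Hhip stood at 116, 139, 105 and 31.8 CPM in it, 44.2% of the Hhip UMIs of progenitors. Gli1 was at 24.2, 20.5, 17.5 and 10.6 CPM, 32.3% of its progenitor UMIs, and Gli2 at 31.9, 41.1, 24.5 and 10.6 CPM, 38.6% of its UMIs. Ptch1 was at 279, 395, 259 and 275 CPM (mean 302 ± 62.4), 15.4% of its UMIs. WT replicate 2, with 12 cells there, was lowest for Hhip, Gli1 and Gli2 and not for Ptch1. Shh had 1 UMI in the whole cluster.

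The cluster differed from other progenitors in regional genes as well. It had Nkx2-1 at 68.4 CPM beside 447 in other progenitors and Lhx6 at 20.5 beside 185, and 0 of the 3 MGE markers were higher. Of the LGE markers 7 of 11 were higher and 4 lower, and of the CGE markers 2 of 6 were higher and 4 lower. The LGE count was near the 61.6% of all genes with at least 1 CPM in progenitors, so it does not set those markers apart. Picked after their values were seen, Nr2f1 was at 885 beside 154 CPM, Meis2 at 958 beside 353, Six3 at 217 beside 68.1, Pax6 at 33.4 beside 2.57 and the CGE marker Prox1 at 12.9 beside 92.3. Meis2, Six3 and Pax6 are from the 7 higher LGE markers, and the 4 lower ones are not named. Of the 51 wider pathway genes 35 were higher in it and 15 lower, with 6 of 8 receptors and co-receptors, 12 of 13 cilium genes and 9 of 13 Gli processing genes higher. Of the wider list's targets 6 of 11 were higher and 4 lower, which the shares of all genes given below do not set apart. The genes for ligands and their release went the other way, with 2 of 7 higher and 5 lower. Of all 20836 genes with a UMI in progenitors, 47.1% were higher in it, and of the 12562 with at least 1 CPM there 61.6%, beside 35 of 46 wider pathway genes at that level, so the count is given as a description. The co-receptors Gas1 (55.1 beside 5.43 CPM) and Boc (19.7 beside 1.497) help Shh reach Ptch1, and Nkx6-2 is a target (151 beside 9.2). Ccnd1, which drives entry into the cell cycle, was at 504 beside 185 CPM.

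**Figure D3:**
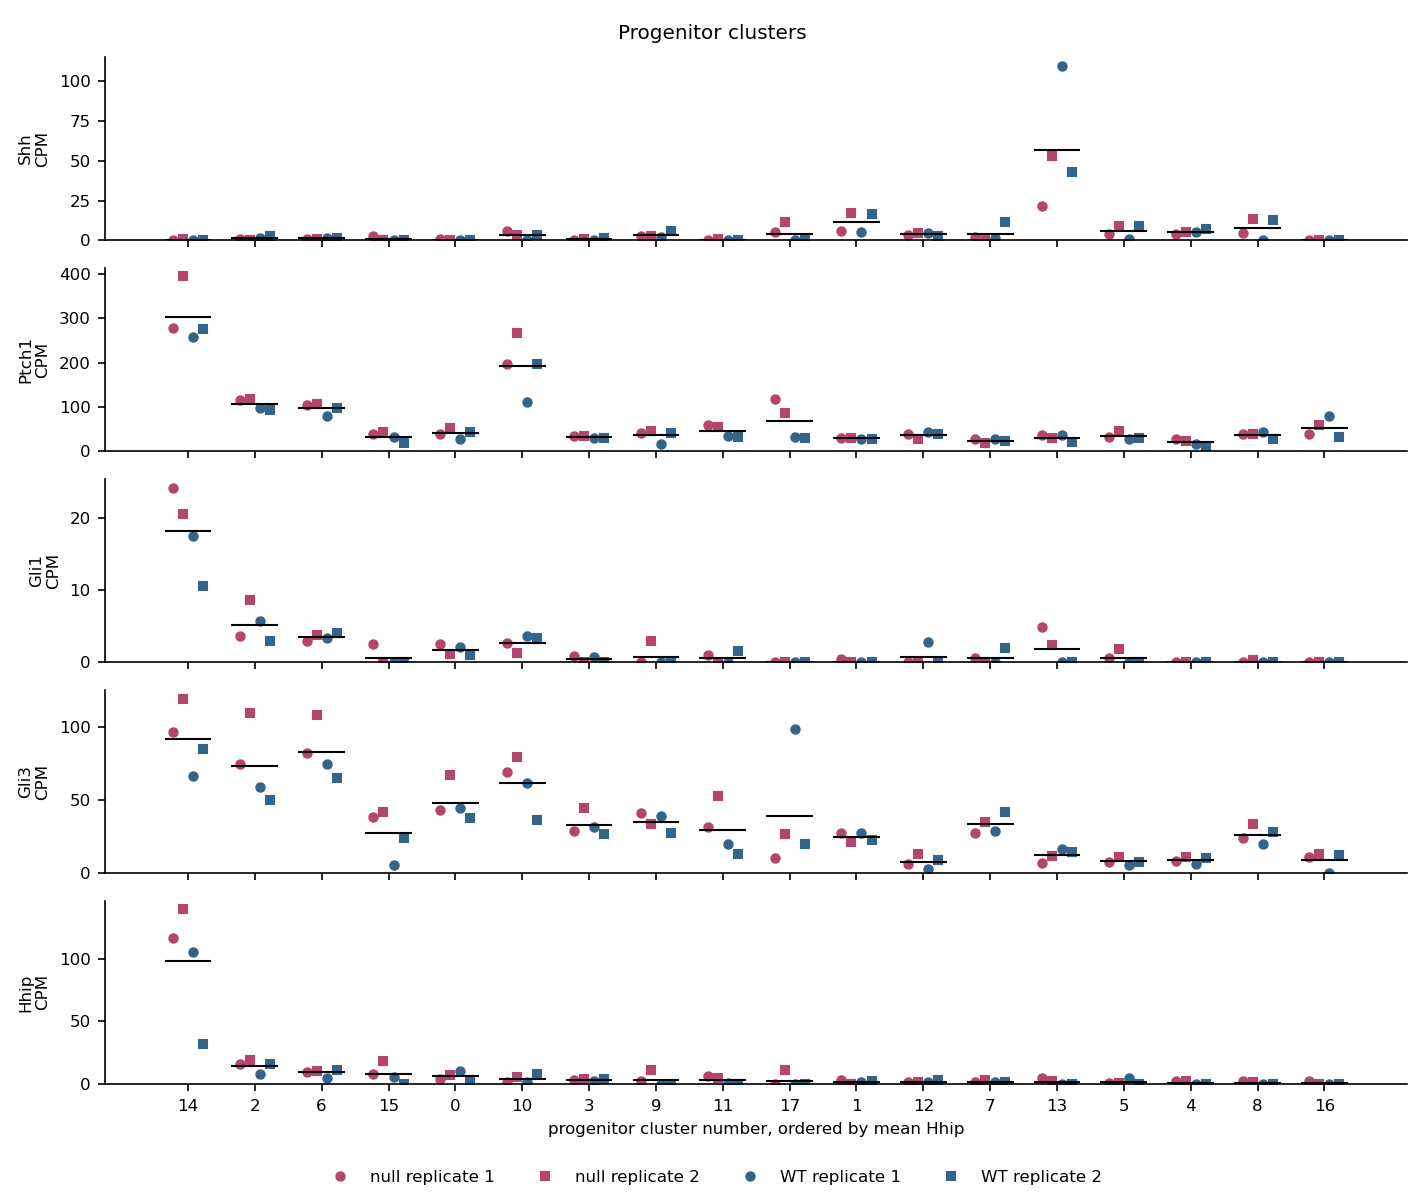
CPM of Shh, Ptch1, Gli1, Gli3 and Hhip in the 18 progenitor clusters, ordered by mean Hhip, with 1 point per library and a bar at the mean of 4. Cluster 14 leads for Ptch1, Gli1, Gli3 and Hhip, and cluster 13 for Shh, where WT replicate 1 reached 110 CPM.

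Outside cluster 14 the members spread over different cells. Ptch1 was next highest in cluster 10, led by the glial genes Fabp7 and Bcan, at 197, 267, 112 and 198 CPM, where Hhip was between 1.81 and 8.23 CPM. Hhip was next highest in cluster 2 (14.7 ± 4.73 CPM) and cluster 6 (9.29 ± 2.88 CPM), whose Gli3 means were 73.3 ± 26.4 and 82.6 ± 18.6 CPM beside 91.8 ± 22.2 in cluster 14, so that Gli3 did not separate the 3. Cluster means of Smo ran from 37.0 to 104 CPM and those of Sufu from 6.56 to 23.6 CPM, against 20.05 to 302 CPM for Ptch1. Shh in progenitors was concentrated in cluster 13, led by Nav2, Npy, St18 and Lhx8, at 21.7, 53.4, 110 and 42.8 CPM, which held 25.3% of their Shh UMIs in 2.46% of the cells. Scaled over the 18 clusters, its mean neuron marker level was 1.01 and its mean progenitor marker level -0.63, so it leaned toward neurons.

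Likeness over the 18 clusters ranked the members in that order. With Gli1, r was 0.87 for Hhip, 0.78 for Gli2, 0.77 for Ptch1, 0.69 for Gli3, 0.30 for Smo, 0.02 for Sufu and -0.22 for Shh. The genes outside the members most like Gli1 among 10419 were Fgf7 (0.94), Dio3os (0.92), Ptx3 (0.91), Nkx2-3 (0.89) and Pax6 (0.89). Cluster 14 is 1 of the 18 points, and its weight in these r values was not tested.

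Some members also differed by phase score. In progenitors scored as G1, Ptch1 was at 138, 223, 78.8 and 87.4 CPM, above the 63.6, 64.2, 44.5 and 48.3 CPM of those scored as S. Gli3 went the other way, at 20.8, 33.9, 18.8 and 21.9 CPM in G1 and 52.7, 69.9, 45.1 and 40.5 CPM in S. These orders held in 4 of 4 libraries. Shh, with few UMIs, had the order of Ptch1, while Smo, Sufu, Gli1, Gli2 and Hhip had no order common to all libraries. Phase scores come from the same transcripts and free RNA enters them, so the values are given without a test.

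A split of progenitors by Ptch1 asked whether the targets moved together from cell to cell. The split gave 428, 260, 198 and 175 cells with a Ptch1 UMI after thinning to 3000 UMIs. Hhip was at 28.8, 37.2, 20.2 and 7.62 CPM with Ptch1 and 5.08, 4.74, 3.07 and 2.60 CPM without, a log2 difference of 2.52 (SE 0.262, edgeR's quasi-likelihood test, Benjamini-Hochberg adjusted p = 8.65e-20). Every library showed it, and the lowest value with Ptch1 was above the highest without. Hhip was seen in 23, 14, 11 and 4 of the cells with Ptch1, so the value of WT replicate 2 rests on few UMIs. Gli3 was at 52.2, 64.1, 52.2 and 26.7 CPM with Ptch1 and 32.1, 43.7, 33.3 and 28.4 CPM without, a difference of 0.49 (SE 0.136, adjusted p = 0.00385), and WT replicate 2 went the other way.

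Cells of cluster 14 made up more of the group with Ptch1 than of the group without, and leaving them out, a choice made after seeing the data, kept 390, 231, 185 and 170 cells with Ptch1 and 2386 of 2429, 1241 of 1267, 1610 of 1630 and 1401 of 1408 without. Hhip was then at 7.69, 11.5, 7.21 and 7.84 CPM with Ptch1 and 4.19, 4.57, 2.48 and 2.14 CPM without, a log2 difference of 1.20 (SE 0.388, adjusted p = 0.0236). Its difference was thus smaller without that cluster, and it was still higher with Ptch1 in 4 of 4 libraries. The values with Ptch1 rest on few Hhip UMIs per library, fewest in the WT libraries. Gli3 differed by 0.44 (SE 0.144, adjusted p = 0.0260). The same 2 members passed, beside 5.79% of 10344 genes higher.

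So 2 of 5 members tested were higher with Ptch1, beside 6.94% of the 10376 genes tested, and 0 were lower, beside 7.15%. Smo (0.23, adjusted p = 0.120), Sufu (-0.02) and Shh (0.14) did not pass, and Gli1 and Gli2 could not be tested. Cells with Ptch1 were somewhat deeper before thinning, at medians of 9453, 13198, 8720 and 8279 UMIs beside 8938, 11790, 8402 and 7861.5, and the part of that difference was not tested.

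Of the wider list, 8 of 36 genes tested were higher with Ptch1 and 0 were lower. They were the co-receptors Gas1 (1.35) and Gpc6 (0.53) and the targets Nkx6-2 (1.84), Bcl2 (0.88), Mycn (0.78), Olig2 (0.71), Ccnd1 (0.67) and Cdk6 (0.27). Without cluster 14 the same 8 of 36 were higher, with Nkx6-2 at 1.22 and Gas1 at 1.02. Neither of these held in all libraries then. Nkx6-2 was at 3.92 CPM with Ptch1 and 4.04 without in WT replicate 2. Gas1 was at 7.22 CPM with Ptch1 and 9.67 without in null replicate 2. By the rule for named genes, the other genes higher with Ptch1 were Mctp1 (2.71), Ramp1 (2.68), the thyroid hormone deiodinase Dio3 (2.58), Htra1 (2.52), Dio3os (2.47), the heparan sulfatase Sulf1 (2.31), Aldoc (2.11), Rassf10 (2.04) and the glial matrix gene Bcan (1.99). Dio3 was at 44.4, 12.8, 48.8 and 5.71 CPM with Ptch1 and 5.21, 2.89, 5.93 and 5.21 without, so WT replicate 2 hardly differed. Mctp1 and Htra1 were each at 6.73 CPM with Ptch1 in WT replicate 1, from few UMIs. Without cluster 14 Dio3 could not be tested, and Dio3os was at 1.85.

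Among the genes lower with Ptch1 was St18, the gene deleted in this study, at 20.2 ± 7.92 CPM with Ptch1 and 40.9 ± 15.3 without (log2 -1.06, adjusted p = 1.54e-07), in 4 of 4 libraries. Dlx6, which drives GABAergic differentiation, was at 39.1 and 73.0 CPM (-0.97). Hbb-y (-1.80), Wfdc2 (-1.11), Calb1 (-0.99), Brinp2 (-0.98), Zswim5 (-0.96), Fam221a (-0.95), Cbfa2t3 (-0.93) and Glipr2 (-0.93) were also lower. Without cluster 14, Calb1 (-0.89, adjusted p = 0.0667) and Fam221a (-0.90, adjusted p = 0.0503) missed the threshold. Hbb-y is a globin of embryonic red cells, and its value rests largely on WT replicate 2, at 13.3 CPM with Ptch1 and 110 CPM without, where the other libraries were at 4.67, 11.5 and 6.73 CPM with and 8.92, 16.3 and 9.20 CPM without.

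**Figure D4:**
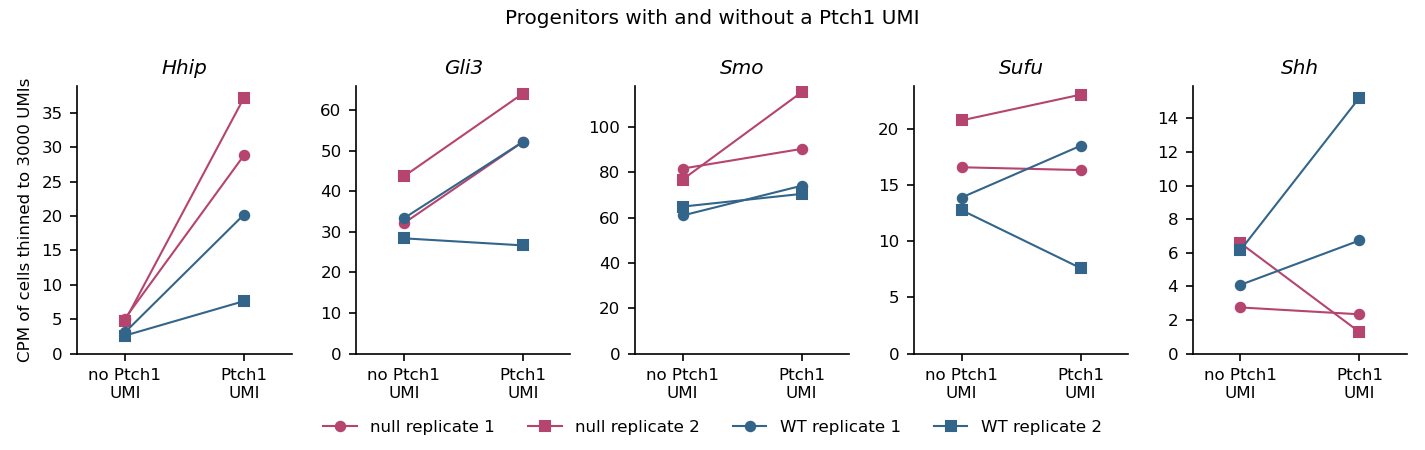
CPM of members in progenitors with and without a Ptch1 UMI, each cell thinned to 3000 UMIs, with a line joining the pair of values of each library. Hhip runs from 2.60 to 5.08 CPM without Ptch1 and from 7.62 to 37.2 CPM with it, and Gli3 rises in 3 of 4 libraries.

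The same question asked of Gli1 rested on few cells. After thinning, Gli1 was seen in 15, 8, 8 and 2 progenitors, of which 9 of 33 were in cluster 14. Ptch1 was at 267, 292, 333 and 167 CPM in them and at 60.4, 80.1, 43.4 and 46.6 CPM in progenitors without Gli1 (log2 1.77, SE 0.381, edgeR adjusted p = 0.00292), and 17 of the 33 cells had a Ptch1 UMI. In WT replicate 2, the 167 CPM came from 1 UMI. Hhip was at 111, 83.3, 83.3 and 0 CPM with Gli1 and 8.09, 9.87, 4.58 and 3.16 without (3.20, SE 0.727, adjusted p = 0.00569). These 2 of 6 members tested were called beside 0.479% of 9815 genes. The median of all genes was -0.55 in this fit, and with library totals as the scaling it was 0.497 higher, with Ptch1 at 2.23 and Hhip at 3.62.

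Both calls were lost when null replicate 1 was left out (1.69, adjusted p = 0.220 for Ptch1 and 2.87, 0.569 for Hhip), when null replicate 2 was (1.96, 0.0665 and 3.46, 0.145) and when WT replicate 1 was (1.59 and 3.12, 0.427 for both). Without cluster 14, Ptch1 was at 1.20 (adjusted p = 0.374). Sufu had 0 UMIs in the 33 cells, which allows a share of cells of up to 9.09% by counting error, and no fold is given. Beside the members, Dio3 (4.11), Ptx3 (2.77), the Notch target Hes1 (2.31) and Nr2f1 (1.396) were higher with Gli1. The folds of Dio3, Ptx3 and Hes1 rest on few UMIs as well. In WT replicate 2 each was at 167 CPM with Gli1, which is 1 UMI there. Npy (-3.15), Spc25 (-2.78), Lhx6 (-2.76), Dpysl3 (-2.68) and Trim35 (-2.53) were lower, from few UMIs in cells with Gli1, and Satb1 and Dlx6 had 0 UMIs there. Sox6 (0, 41.7, 0 and 0 CPM with Gli1), Lhx8 and Pou3f1 (22.2, 0, 0 and 0 CPM each) were also called lower, and no fold is given for them.

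Between genotypes, no member passed the test in either class. In neurons 3 of 13622 genes (0.022%) were called by edgeR's quasi-likelihood test, namely Xist, Tsix and Gm35082, and 0 of 7 members, with 1 of 7 members and 2349 of all genes at an unadjusted p under 0.05. In progenitors 2 of 13568 genes (0.0147%) were called, Xist and Tsix, and 0 of 8 members, with 4 members and 2349 genes at an unadjusted p under 0.05. DESeq2 called 303 genes in neurons and 327 in progenitors. Of the wider list, 0 genes were called in either class. Cells of the libraries labelled null were also deeper, at medians of 6998 and 9352 UMIs beside 6333 and 6186 under WT. Depth and genotype thus cannot be told apart at the level of libraries.

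Shh in neurons was the member with the lower values under the label null, 20.3 and 23.3 CPM against 26.0 and 25.6 CPM. The log2 difference of null from WT was -0.40 (SE 0.122, 95% interval -0.675 to -0.121, adjusted p = 0.188), and without overlap between the groups, as for 13.3% of all genes in that direction. Neuron cluster 3, with its high Shh, was 7.19% and 4.71% of the neurons labelled null and 8.92% and 9.12% of those labelled WT. With equal numbers of cells drawn from each cluster, the difference was 0.00186 (adjusted p = 0.996). Fewer cells with Shh and less Shh in each cannot be told apart in a summed level, and within cluster 3 Shh was at 141 and 216 CPM under null beside 148 and 132 under WT. In the other direction 5 of 7 members were higher in both neuron pools labelled null, beside 42.8% of all genes, with differences of 0.15 for Ptch1, 0.23 for Smo, 0.25 for Sufu, 0.37 for Gli2 and 0.49 for Hhip.

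In progenitors 7 of 8 members were higher in both libraries labelled null than in both labelled WT, beside 48.2% of all genes. Hhip had a mean of 11.1 ± 2.55 CPM under null and 5.35 ± 0.880 under WT (SD, n = 2 each), a log2 difference of 0.84 (SE 0.189, 95% interval 0.401 to 1.28, adjusted p = 0.126). Ptch1 was at 78.3 ± 11.3 and 51.9 ± 1.38 CPM (0.40, SE 0.114, adjusted p = 0.183), and Gli2 differed by 1.16 (SE 0.409, adjusted p = 0.230). Sufu (0.34, adjusted p = 0.227), Gli3 (0.30, adjusted p = 0.318), Gli1 (0.36) and Smo (0.20) were smaller, and Shh was at -0.64 (SE 0.330, adjusted p = 0.361) with overlapping values.

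Cluster 14, where Hhip was highest, was 2.84% and 3.60% of progenitors under null and 1.81% and 0.758% under WT. With equal cells of each cluster, Hhip differed by 0.44 (adjusted p = 0.294). Among cells with a Y-linked UMI and at most 1 Xist UMI, Hhip differed by 1.08 (adjusted p = 0.0862). Leaving out null replicate 1 brought Ptch1 (0.48, adjusted p = 0.0012), Sufu (0.41, 0.0109), Gli2 (1.55, 0.00586), Gli3 (0.42, 0.00814) and Hhip (1.004, 0.00174) past the threshold. Leaving out null replicate 2 brought Ptch1 past it (0.31, 0.0315), with Hhip at 0.66 (0.0513). In both cases the null group is 1 library, assumed to vary like the 2 WT libraries, which alone supply the spread. The number of genes called was then 4179 and 1511, so these calls came with many others.

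Whether the step from neurons to progenitors differed between genotypes was tested by an interaction term. It was called for 0.836% of 13759 genes and for 0 of 8 members, 2 of which had an unadjusted p under 0.05, as did 1207 of all genes. Ptch1 was at 0.21 (adjusted p = 0.466) and Gli3 at 0.36 (adjusted p = 0.513).

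**Figure D5:**
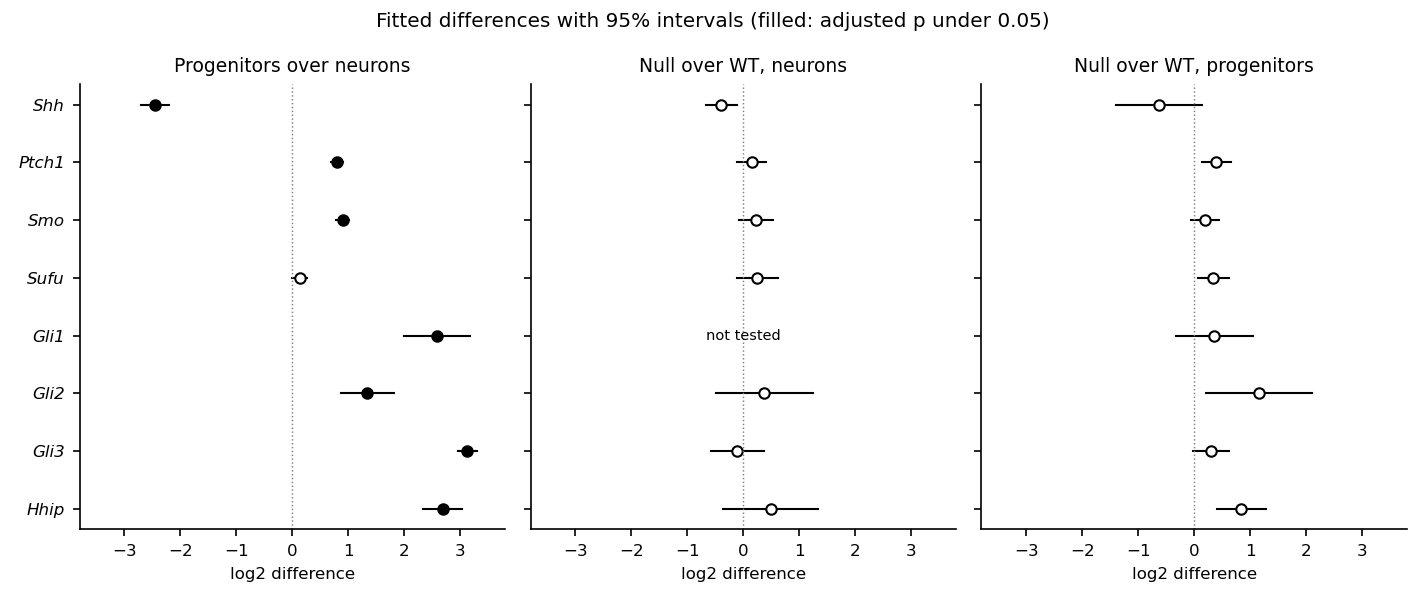
Fitted log2 differences of the members with 95% intervals between progenitors and neurons and between null and WT in each class, with filled points where the adjusted p was under 0.05. Shh lies at -2.45 and Gli3 at 3.12 between the classes, while the points for null against WT are open in both classes.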

How the data were processed

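Single-cell transcriptomes of e14.5 MGE pools were measured in 4 libraries. The authors deposited raw UMI count matrices from Cell Ranger 5.0.1 (per the submitters' processing notes, with build GRCm38; the file headers name version 4). Kept cells had at least 3000 UMIs, 200 genes and at most 10% mitochondrial UMIs. Library pairs shared 4 to 11 cell barcodes, beside 2.29 to 4.4 expected by chance. Doublet scores came from Scrublet in scanpy 1.11.5. Its threshold called 0 to 2 cells per library and had not worked, so the highest scores were removed at 0.8% per 1000 cells (352, 120, 163 and 129 cells). Cells were clustered in Seurat 5.3.0 on 49 components at resolution 1.4 with the S minus G2M score regressed out, after the study's methods. The hedgehog genes were left out of the clustering here, and the study's methods name neither the minimum of 3000 UMIs nor a removal of doublets. The cells were classed by neuron and progenitor markers and clustered again within each class (22 and 18 clusters). A difference from the study's clusters may come from these rebuilt names. Empty droplets were barcodes with 200 to 600 UMIs.

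UMIs were summed per library and class, with median depths of 6186 to 9352 UMIs per cell. CPM are per 1000000 UMIs of those sums. Tests used edgeR 4.0.16 in R 4.3.3 (TMM, filterByExpr, quasi-likelihood test, Benjamini-Hochberg adjustment, two-sided, threshold 0.05), with the library as a block between classes and splits and no covariate between genotypes. The test between classes and the genotype test in neurons were run on simulated data first. The splits, the genotype test in progenitors and the interaction were not. Splits thinned cells to 3000 UMIs. Shares of 0 are read as under 3 counts, for counting error only. Promoters came from RefSeq. Figures used Python 3.11.15 and matplotlib 3.10.9. Alternatives were other scalings, filters, DESeq2, cell sets and leaving out each library; those less empty-droplet UMIs or without a Shh-led or Hhip-led cluster were chosen after seeing the data. The members, the wider pathway list and the tests were chosen with earlier results of these data known. Named were the members, St18 and Xist, up to 3 called genes per role of the wider list with at least 10 CPM, up to 10 genes per direction in a split that moved the same way in 4 of 4 libraries (genes named Gm, Rik or -ps left out), and the 5 genes most like Shh and Gli1. Outside this rule, Spop, Cul3, Tsix, Gm35082, cluster genes and the wider list's genes in the Ptch1 split were named after their values were seen. A gene that met this rule is not reported here by name.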

Additional observations from a re-analysis of the deposited data

How the results depend on the processing

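The difference between progenitors and neurons kept its direction for 8 of 8 members under the 14 alternatives run, and the number of genes called stayed between 8874 and 11859 (11061 reported). Sufu passed the threshold there with RLE size factors (0.15, adjusted p = 0.0456) and without the neuron clusters led by progenitor markers (0.20, 0.0145). Between genotypes the counts depended on the setting. In neurons, 3 genes were reported, against 10 with RLE, 275 with library totals alone, 15 without a filter on low counts, 303 with DESeq2, 65 to 3001 with 1 library left out, 13 in cells with at least 5000 UMIs, 51 with classes from marker UMIs, 10 without the clusters led by markers of the other class, 1 in cells with a Y-linked UMI and 8 with equal cells of each cluster. In progenitors, 2 genes were reported, against 107 with library totals, 918 without the filter, 327 with DESeq2, 5 to 4179 with 1 library left out, 0 in cells with a Y-linked UMI and 91 with equal cells of each cluster. Library totals moved the median of all genes by 0.153 in neurons and 0.192 in progenitors. Under these settings Sufu in neurons passed without null replicate 1 (0.43). In progenitors Hhip passed with library totals (1.04), and Shh (-0.63), Gli2 (1.16) and Hhip (0.85) passed without the filter, beside those given in the report with 1 null library left out (a group of 1 library takes its spread from the other genotype). Directions turned for Gli3 in neurons (library totals 0.052, Y-linked cells 0.072, and -0.26 to 0.064 with 1 library left out, the last without null replicate 1), for Shh in neurons (equal cells 0.00186) and for Gli1 in progenitors (equal cells -0.011).

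In the split by Shh, 397 genes were reported, against 174 with DESeq2, 220 to 336 with 1 library left out, 92 with no library block, 953 with all UMIs, 216 at 2 or more Shh UMIs and 174 without the cluster led by Shh. Ptch1 turned there with 1 library left out (-0.093 without WT replicate 1, to 0.17), at 5000 UMIs (-0.16), with all UMIs (-0.10) and at 2 or more UMIs (-0.13), and Smo with all UMIs (-0.043). In the split by Gli1, 47 genes were reported (6 higher), against 33 with RLE (15 higher), 48 with library totals (26 higher), 12 with DESeq2, 1 to 129 with 1 library left out, 139 with no library block, 2114 with all UMIs, 1462 split by Ptch1, 1208 split by Ptch1 without the cluster led by Hhip and 27 without the cluster led by Hhip. Gli3 turned there with RLE (0.35), library totals (0.43), DESeq2 (0.30), with 1 library left out (-0.81 to 0.62, above 0 without null replicate 1 and without WT replicate 2), with all UMIs (0.93), split by Ptch1 (0.49, or 0.44 without the Hhip-led cluster) and without the Hhip-led cluster (0.065). Shh turned with all UMIs (-0.97) and Smo with all UMIs (0.068) and split by Ptch1 (0.23, or 0.20 without that cluster). RLE, library totals and DESeq2 moved the median of all genes there by 0.413, 0.497 and 0.516. The cause of the changes was not tested. A split at 2 or more Gli1 UMIs was not run, since 3 libraries had 0 such cells. Gli1 and Gli2 were limited by depth, with under 70 Gli1 UMIs in the progenitors of each library. No paired analysis was possible because the labels carry no replicate numbers, and those used here follow accession order and only name the libraries.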
